A study of Mus musculus with 9 samples.

Results

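The 9 genes described here encode cytokines made by myeloid cells and mast cells: Il1b, Tnf, Il6, Il4, Il13, Il10, Osm, Csf1 and Tgfb1. They were chosen by name, and each probe whose accession in the scanner files belongs to one of them was used, which gave 10 probes for 9 of the 16535 genes with a named probe on the array. FDCPmix cells are mouse blood progenitors, grown as a line in IL-3, that can form erythroid and myeloid cells. They were kept in self-renewal conditions in Fischer's medium and transduced with a lentivirus that marks them with GFP, and viable GFP-positive cells were sorted on day 5. There were 3 groups of 3 arrays each: cells that received the empty Lentilox 3.7 vector (EV), cells that received an shRNA against Gata2 (Gata2 KD) and cells that received an shRNA against Pu.1 (Pu.1 KD). An shRNA is a short hairpin RNA that lowers its target transcript, and the targets are 2 transcription factor genes, Gata2 and Spi1, of which the latter is called Pu.1 in the group names and its protein PU.1. The comparison of each knockdown with EV describes which transcripts differed in the sorted cells that received that shRNA.

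Cytokines are secreted proteins that act on cells carrying matching receptors. Il1b and Tnf encode inflammatory cytokines that signal to NF-kB, Il6 and Osm encode members of the family that signals through the shared receptor chain gp130, and Il4 and Il13 encode neighboring type 2 cytokines that mast cells and basophils can make. Csf1 encodes the growth factor of monocytes and macrophages, and Il10 and Tgfb1 encode cytokines that restrain immune responses. Factors of the GATA family and PU.1 direct opposing and shared programs in blood cells, and GATA2 is needed in mast cells.

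The upstream sequences of 6 of the genes are shown because the factors that were knocked down bind known short words in DNA and these genes changed differently. Of the 9 genes, 7 had an entry in the RefSeq promoter table of build GRCm38.p6. Each run is the 250 bases before the annotated start, 5′ to 3′ on the strand of the gene, and capitals mark the GATA words, which are AGATAA with the variant TGATAA as well as AGATAG with the variant TGATAG, and the PU.1 word GAGGAA, on either strand.
Il6, chr5:30012864-30013113, plus strand: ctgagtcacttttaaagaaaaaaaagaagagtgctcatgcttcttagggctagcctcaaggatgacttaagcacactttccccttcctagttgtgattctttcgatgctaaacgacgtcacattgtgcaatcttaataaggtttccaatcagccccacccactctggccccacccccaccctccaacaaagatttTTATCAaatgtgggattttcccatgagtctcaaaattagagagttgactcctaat
Il4, chr11:53617339-53617588, minus strand: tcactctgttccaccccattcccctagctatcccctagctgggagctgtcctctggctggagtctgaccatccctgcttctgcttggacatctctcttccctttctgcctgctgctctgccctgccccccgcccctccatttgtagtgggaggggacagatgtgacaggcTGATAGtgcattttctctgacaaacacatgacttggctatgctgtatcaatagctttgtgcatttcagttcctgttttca
Il13, chr11:53634703-53634952, minus strand: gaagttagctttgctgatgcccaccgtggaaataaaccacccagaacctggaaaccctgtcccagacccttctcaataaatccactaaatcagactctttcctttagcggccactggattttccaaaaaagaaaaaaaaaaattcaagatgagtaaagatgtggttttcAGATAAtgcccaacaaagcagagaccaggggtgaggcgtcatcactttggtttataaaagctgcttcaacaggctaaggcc
Il1b, chr2:129371140-129371389, minus strand: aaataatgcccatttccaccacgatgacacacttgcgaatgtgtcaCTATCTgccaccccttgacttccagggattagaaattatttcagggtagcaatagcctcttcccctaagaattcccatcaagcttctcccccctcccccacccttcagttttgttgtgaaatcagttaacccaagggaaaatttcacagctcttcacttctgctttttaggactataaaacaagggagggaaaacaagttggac
Tnf, chr17:35202008-35202257, minus strand: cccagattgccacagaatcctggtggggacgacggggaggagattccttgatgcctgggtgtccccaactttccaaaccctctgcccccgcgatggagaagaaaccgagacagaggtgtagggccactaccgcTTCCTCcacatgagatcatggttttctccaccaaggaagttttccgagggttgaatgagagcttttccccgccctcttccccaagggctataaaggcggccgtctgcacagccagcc
Csf1, chr3:107760470-107760719, minus strand: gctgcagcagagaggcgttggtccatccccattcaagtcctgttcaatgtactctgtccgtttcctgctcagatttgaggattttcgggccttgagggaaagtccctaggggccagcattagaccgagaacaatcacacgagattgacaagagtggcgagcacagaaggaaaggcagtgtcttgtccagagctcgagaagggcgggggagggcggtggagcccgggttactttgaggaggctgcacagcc
The window of Il6 held a GATA word whose first base lay 55 bases before the start, on the opposite strand. Those of Il4 and Il13 held GATA words 80 and 81 bases before the start on the strand of the gene, and that of Il1b held one 204 bases before it on the opposite strand. The Tnf window held the PU.1 word 117 bases before the start on the opposite strand and no GATA word, and the Csf1 and Tgfb1 windows held neither. Il4 had 2 entries, and the window shown belongs to the downstream start. The window of the upstream start, chr11:53618666-53618915, held neither word. Among all 32851 windows of this length in the table, 26.5% held a GATA word and 23.3% the PU.1 word, so a match in one window describes those letters and is common. None of the matches shown overlapped another.

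All 10 probes read well above background on all 9 arrays, and all 10 were tested. That is a low bar, because between 80.4% and 89.6% of the non-control spots of an array met it. All 6 T cell markers and all 7 fibroblast and stroma markers on the array also met it on every array. Meeting it therefore does not separate the cytokines from genes of other cell types. The 153 negative control spots give a second measure, and their median processed intensity lay between 1.40 and 3.41. The lowest reading of any cytokine probe was 40.0, for the dimmer Osm probe, and the lowest Il10 reading was 44.6. Every cytokine probe exceeded the 95th percentile of the negative controls on every array, and the smallest ratio of a reading to the negative control median of its array was 16.4, for Il10. In the text a level is the log2 processed intensity minus the 75th percentile of the array, a change is a difference of mean levels, and errors of levels are the SD over 3 arrays. Levels compare the arrays for 1 probe and do not compare genes with each other. Probes for Il13 and Osm had 1 spot per array and the others had 10.

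The knockdowns were first checked in their target transcripts. The level of Gata2 was 4.80 ± 0.27 in EV, 3.19 ± 0.36 in Gata2 KD and 4.65 ± 0.19 in Pu.1 KD. The level of Spi1 was -1.86 ± 0.21 in EV, -0.47 ± 0.17 in Gata2 KD and -3.59 ± 0.06 in Pu.1 KD. Each target fell in its own knockdown, by 1.61 for Gata2 (adjusted p = 0.00414) and by 1.73 for Spi1 (adjusted p = 0.00178), and Spi1 rose by 1.39 in Gata2 KD (adjusted p = 0.0012). All adjusted p-values are from limma with Benjamini-Hochberg adjustment over 36585 tested probes, and a change was called when this value was under 0.05.

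In Gata2 KD against EV, 6 of the 9 cytokine genes were called. Csf1, Il1b and Tnf rose, Il6, Il4 and Osm fell, and the changes ran from a 4.53-fold rise of Csf1 to a 4.27-fold fall of Il6. Over all tested probes 2.96% were called higher and 2.24% lower, against 3 genes in each direction here. The groups did not overlap for 7 of the 9 genes, compared with 18.6% of all tested probes. The median change of the 9 genes was 0.00, which is the middle of rises and falls, while that of all tested genes was -0.09.

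In Pu.1 KD against EV, 2 of the 9 genes were called. Csf1 rose and Il6 fell, in each case by less than in Gata2 KD. Over all tested probes 1.27% were called higher and 1.42% lower. The groups did not overlap for 4 of the 9 genes, compared with 17.3% of all tested probes. The median change of the 9 genes was 0.03, against -0.04 for all tested genes. Both comparisons use the same EV arrays, so they are not independent, and the direct comparison of the knockdowns was made as well. In Gata2 KD against Pu.1 KD, 6 genes were called, 3 higher and 3 lower, where 4.86% of all probes were called higher and 4.77% lower. The groups did not overlap for 7 of the 9 genes, compared with 25.8% of all tested probes.

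**Figure D1:**
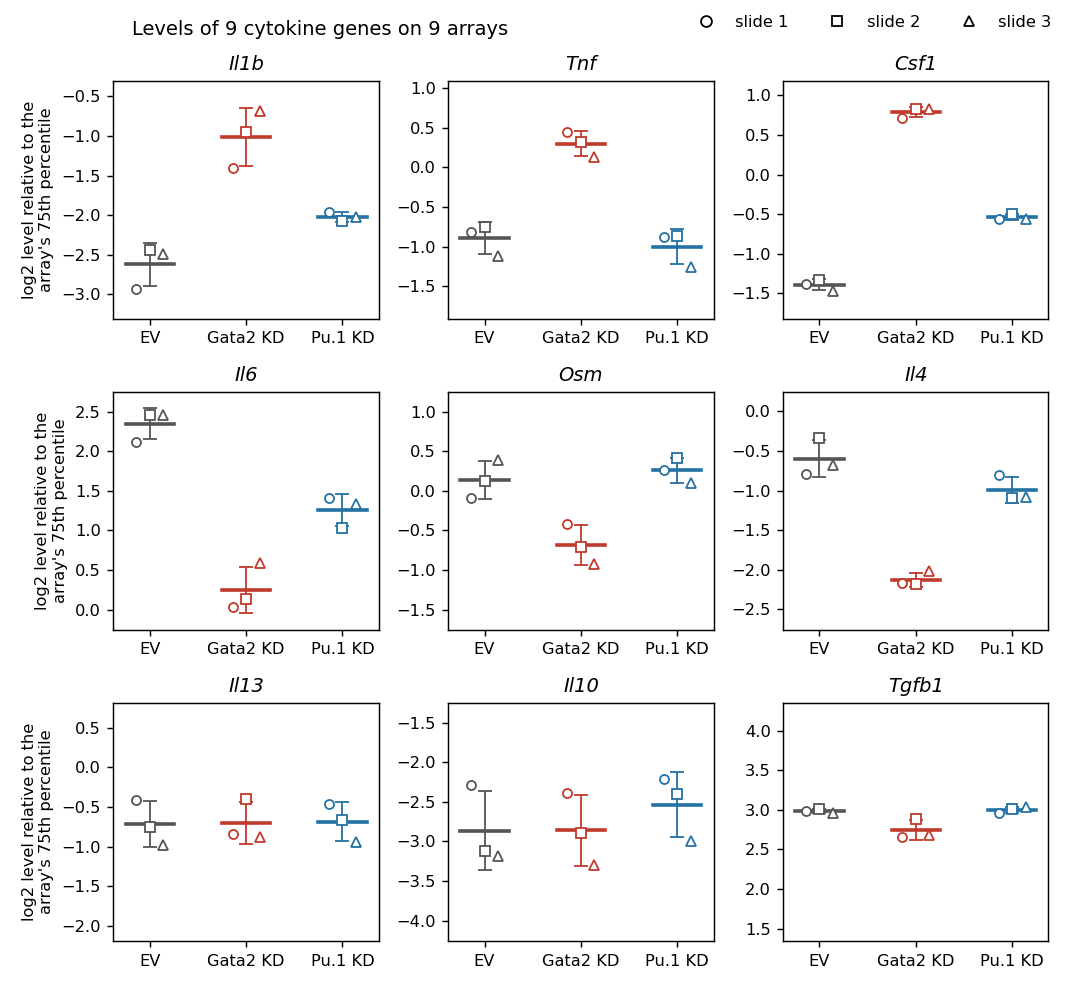
Level of each of the 9 cytokine genes on the 9 arrays, as log2 processed intensity relative to the array's 75th percentile (vertical axes, each spanning 3 log2 units), by group. Open symbols are single arrays, with the shape giving the slide, thick lines are means and bars are the SD over 3 arrays. The Csf1 groups are fully separated, Gata2 KD lies apart from both other groups for Tnf, Il6, Il4 and Il1b, and Il10 spreads by slide within every group.

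Csf1, the macrophage growth factor, gave the clearest separation. Its level was -1.38, -1.47 and -1.33 on the 3 EV arrays, 0.83, 0.82 and 0.72 on the Gata2 KD arrays and -0.50, -0.56 and -0.56 on the Pu.1 KD arrays. Every Gata2 KD array was above every Pu.1 KD array and every Pu.1 KD array was above every EV array. The change against EV was 2.18 in Gata2 KD (SE 0.12, adjusted p = 2.76e-05) and 0.85 in Pu.1 KD (SE 0.12, adjusted p = 0.00941). The 2 knockdowns differed directly by 1.33 (SE 0.12, adjusted p = 0.00018), a 2.51-fold difference. Within the 3 slides, each of which held 1 array of every group, the rise in Gata2 KD lay between 2.09 and 2.30 and that in Pu.1 KD between 0.81 and 0.91. Of the variance of Csf1 over the 9 arrays, 99.7% lay between groups. The Pu.1 KD call was lost in 4 of 20 alternative analyses, among them scaling each array to its median (adjusted p = 0.0636) and leaving out Pu.1 KD replicate 1 (adjusted p = 0.0577).

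Il1b encodes interleukin-1 beta, an inflammatory cytokine that is released after cleavage by caspase-1. Its level was -2.93, -2.49 and -2.45 on the EV arrays, -0.68, -0.96 and -1.41 on the Gata2 KD arrays and -2.08, -2.03 and -1.96 on the Pu.1 KD arrays. The 3 groups did not overlap, with EV lowest and Gata2 KD highest, and the Gata2 KD arrays spread the most. The change in Gata2 KD was 1.60 (SE 0.21, adjusted p = 0.00323), a 3.04-fold rise. In Pu.1 KD the change was 0.60 with a 95% confidence interval from 0.11 to 1.09 before adjustment, and it was not called (adjusted p = 0.262). Gata2 KD was higher than Pu.1 KD by 1.01 (adjusted p = 0.0201), a call that was lost in 7 of 20 alternatives, among them leaving out each Pu.1 KD array in turn or Gata2 KD replicate 1 or 2, with adjusted p between 0.0608 and 0.0835 in those fits.

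Tnf encodes tumor necrosis factor. Its level was -0.82, -1.13 and -0.75 in EV, 0.13, 0.32 and 0.44 in Gata2 KD and -0.86, -1.26 and -0.88 in Pu.1 KD. The Gata2 KD arrays were above all others, and the EV and Pu.1 KD arrays overlapped. Tnf rose by 1.20 in Gata2 KD (SE 0.17, adjusted p = 0.00517) and exceeded Pu.1 KD by 1.30 (SE 0.17, adjusted p = 0.00187). Both calls were kept in all 20 alternatives. In Pu.1 KD the change against EV was -0.10, with an interval from -0.51 to 0.30 (adjusted p = 0.975). The 10 spots of this probe agreed closely, with an SD between spots of at most 0.07 on any array.

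Il6, which encodes a cytokine of the gp130 family, moved the other way. Its level was 2.12, 2.46 and 2.45 on the EV arrays, 0.58, 0.14 and 0.03 on the Gata2 KD arrays and 1.03, 1.33 and 1.41 on the Pu.1 KD arrays. The 3 groups did not overlap, with EV highest and Gata2 KD lowest. The change against EV was -2.10 in Gata2 KD (SE 0.20, adjusted p = 0.000446) and -1.09 in Pu.1 KD (SE 0.20, adjusted p = 0.0266), a 2.12-fold fall. Gata2 KD was below Pu.1 KD by 2.01-fold (change -1.01, SE 0.20, adjusted p = 0.013). The fall in Gata2 KD was called in all 20 alternatives. That in Pu.1 KD was lost in 9 of them, with an adjusted p of up to 0.16, including the fits without EV replicate 2 or 3, without Gata2 KD replicate 2 and without any 1 of the Pu.1 KD arrays. The difference between the knockdowns was lost in 6, including the fits without Gata2 KD replicate 2 or 3 and without Pu.1 KD replicate 2 or 3.

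Osm encodes oncostatin M, a related cytokine of the gp130 family, and was read by 2 probes. The brighter probe (A_51_P291361) gave levels of -0.09, 0.38 and 0.12 in EV, -0.92, -0.71 and -0.42 in Gata2 KD and 0.41, 0.10 and 0.27 in Pu.1 KD. The Gata2 KD arrays lay below all others and the EV and Pu.1 KD arrays overlapped. The change in Gata2 KD was -0.82 (SE 0.19, adjusted p = 0.0444). The dimmer probe (A_52_P348614) gave -2.47, -2.01 and -2.77 in EV, -3.42, -3.54 and -3.23 in Gata2 KD and -2.12, -2.32 and -2.36 in Pu.1 KD, with a change of -0.98 in Gata2 KD (SE 0.21, adjusted p = 0.0306). The 2 probes therefore moved the same way, but the call against EV was lost in 14 of 20 alternatives for the brighter probe and 13 for the dimmer, with adjusted p of up to 0.17 and 0.224, and every fit that left out 1 array lost the brighter probe's call. Against Pu.1 KD the change was -0.94 for the brighter probe (adjusted p = 0.0151) and -1.13 for the dimmer (adjusted p = 0.00949), calls lost in 4 and 1 of the alternatives. Leaving out Gata2 KD replicate 1 or 2 or Pu.1 KD replicate 1 or 3 ended the former, with adjusted p between 0.0548 and 0.0678. In Pu.1 KD against EV neither probe was called (changes 0.12 and 0.15).

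**Figure D2:**
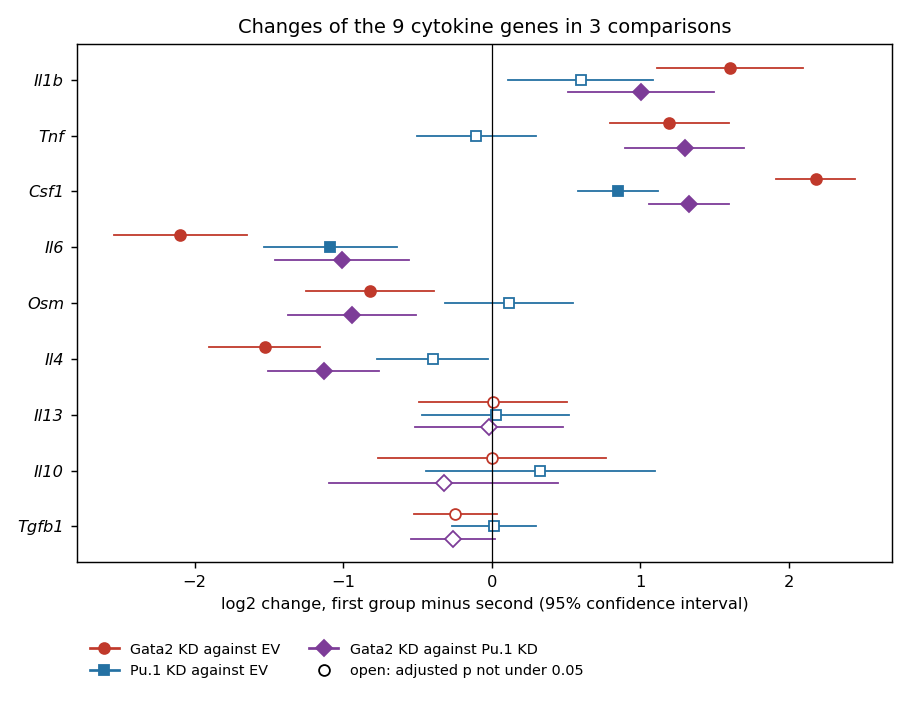
Change of each cytokine gene (rows) on the log2 scale, first group minus second, in the 3 comparisons, with 95% confidence intervals that are not adjusted for the number of probes. Filled symbols mark adjusted p under 0.05. Csf1 (2.18 and 0.85) and Il6 (-2.10 and -1.09) are filled in both comparisons with EV, and Il13, Il10 and Tgfb1 in none.

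Il4 and Il13 are neighbors on chromosome 11 and are often made by the same cells. The level of Il4 was -0.78, -0.68 and -0.33 in EV, -2.02, -2.18 and -2.17 in Gata2 KD and -1.09, -1.08 and -0.81 in Pu.1 KD. Gata2 KD lay well below both other groups, and the Pu.1 KD arrays lay just below the EV arrays. Il4 fell by 1.53 in Gata2 KD (SE 0.16, adjusted p = 0.00095), a 2.88-fold fall, and was 2.19-fold below its Pu.1 KD level there (adjusted p = 0.0028), and both calls were kept in all 20 alternatives. In Pu.1 KD the change against EV was -0.40 (SE 0.16, adjusted p = 0.361), and within slides it ran from -0.76 to -0.02.

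Il13 did not follow Il4. Its level was -0.41, -0.98 and -0.75 in EV, -0.88, -0.40 and -0.84 in Gata2 KD and -0.66, -0.95 and -0.46 in Pu.1 KD, and the 3 groups overlapped throughout. The change was 0.01 in Gata2 KD (95% confidence interval -0.49 to 0.50, adjusted p = 0.997) and 0.03 in Pu.1 KD (interval -0.47 to 0.52, adjusted p = 1.00), so a fall of the size measured for Il4 in Gata2 KD lies outside the interval for that knockdown. Of the Il13 variance, 0.24% lay between groups and 57.2% between slides. The difference between the responses of Il4 and Il13 was not itself tested. Of 9 other genes of this chromosome 11 cluster, Kif3a, which adjoins Il4 and encodes a kinesin motor subunit, fell by 0.95 in Gata2 KD (adjusted p = 0.034), and Irf1, an interferon regulatory factor, rose by 0.80 (adjusted p = 0.0115). The other 7, including Il5, Il3 and Csf2, did not pass the test in Gata2 KD, and none of the 9 passed in Pu.1 KD. The median change of the 9 was -0.27 in Gata2 KD and -0.32 in Pu.1 KD.

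Il10 and Tgfb1 were not called in any comparison. For Il10 the level was -2.29, -3.18 and -3.13 in EV, -3.30, -2.89 and -2.39 in Gata2 KD and -2.40, -3.00 and -2.22 in Pu.1 KD. The 3 arrays of slide 1 read -2.29, -2.39 and -2.22, 1 array of slide 2 (Pu.1 KD) read -2.40 and the other 5 were at -2.89 or below, and 76.8% of the variance lay between slides against 14.6% between groups. The change was 0.00 in Gata2 KD (interval -0.76 to 0.77) and 0.33 in Pu.1 KD (interval -0.44 to 1.096). With the slide as a block the SE fell from 0.34 to 0.14, and neither change was called (adjusted p = 0.99 and 0.285), although Pu.1 KD was above EV on all 3 slides, by 0.07 to 0.73. The spots of this dim probe also disagreed more on the other slides, with an SD of up to 0.38. For Tgfb1 the level was 2.98, 2.96 and 3.01 in EV, 2.68, 2.88 and 2.65 in Gata2 KD and 3.01, 3.04 and 2.96 in Pu.1 KD. The Gata2 KD arrays lay below all others, but the change was only -0.24 (interval -0.53 to 0.04, adjusted p = 0.444). In Pu.1 KD the Tgfb1 change was 0.02 (interval -0.27 to 0.30).

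**Figure D3:**
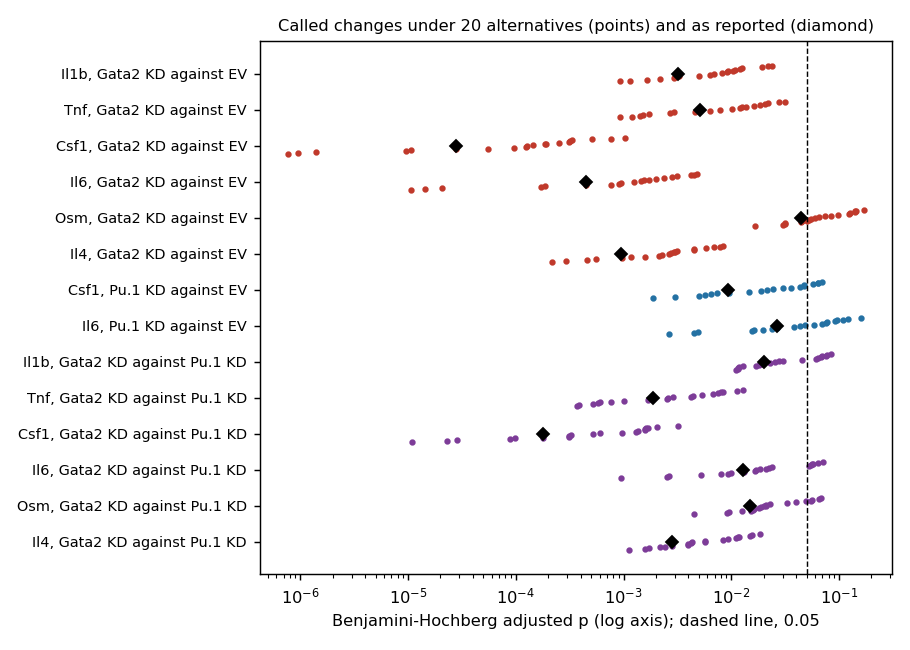
Benjamini-Hochberg adjusted p (horizontal log axis) of each called change as reported (black diamond) and under 20 alternative analyses (points), with the threshold of 0.05 as a dashed line. All points of Il1b, Tnf, Csf1, Il6 and Il4 in Gata2 KD against EV lie left of the line, whereas 14 of the 20 Osm points and 9 of the 20 Il6 points in Pu.1 KD lie right of it.

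Among genes placed beside Tnf on chromosome 17, Ltb, which encodes lymphotoxin beta, rose by 1.81 in Gata2 KD (adjusted p = 0.000196) and fell by 1.53 in Pu.1 KD (adjusted p = 0.00224). Lst1, a leukocyte gene, rose by 1.16 and fell by 2.05, and Aif1, a macrophage calcium-binding protein, rose by 3.36 in Gata2 KD. Tnf itself rose in Gata2 KD without a called change in Pu.1 KD. Lta, which adjoins Tnf, was not called (changes -0.56 and -0.36). In all, 3 of 5 tested neighbors rose in Gata2 KD, with a median change of 1.16, and 2 fell in Pu.1 KD, with a median of -0.36.

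The receptors of the 9 cytokines were listed as 20 chains, all tested. In Gata2 KD 6 rose and 1 fell, with a median change of 0.14 against -0.09 for all genes, and in Pu.1 KD 2 fell and none rose, with a median of -0.06. Csf1r, the receptor of the Csf1 product, rose by 4.52 in Gata2 KD (SE 0.20, adjusted p = 1.26e-05), where Csf1 also rose, and its change in Pu.1 KD was 0.25 (adjusted p = 0.812), where Csf1 rose as well. For interleukin-1, the decoy receptor Il1r2 rose by 3.29 and the signaling receptor Il1r1 by 2.62 in Gata2 KD, and Il1r2 fell by 1.92 in Pu.1 KD (adjusted p = 0.0018). Tnfrsf1a, a receptor of tumor necrosis factor, rose by 2.40, and the interleukin-10 receptor chains Il10rb and Il10ra rose by 1.19 and 0.68. Tgfbr2, a receptor of the Tgfb1 product, fell in both knockdowns, by 0.87 in Gata2 KD (adjusted p = 0.00708) and by 1.32 in Pu.1 KD (adjusted p = 0.00289). No listed receptor chain of the cytokines that fell was called in Gata2 KD. Their changes there were 0.19 for Il6ra, 0.28 for Il6st, 0.05 for Osmr, 0.07 for Lifr, 0.09 for Il4ra, -0.16 for Il13ra1 and 0.69 for Il2rg, the shared chain of the interleukin-4 receptor (interval 0.19 to 1.19 before adjustment, adjusted p = 0.15).

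**Figure D4:**
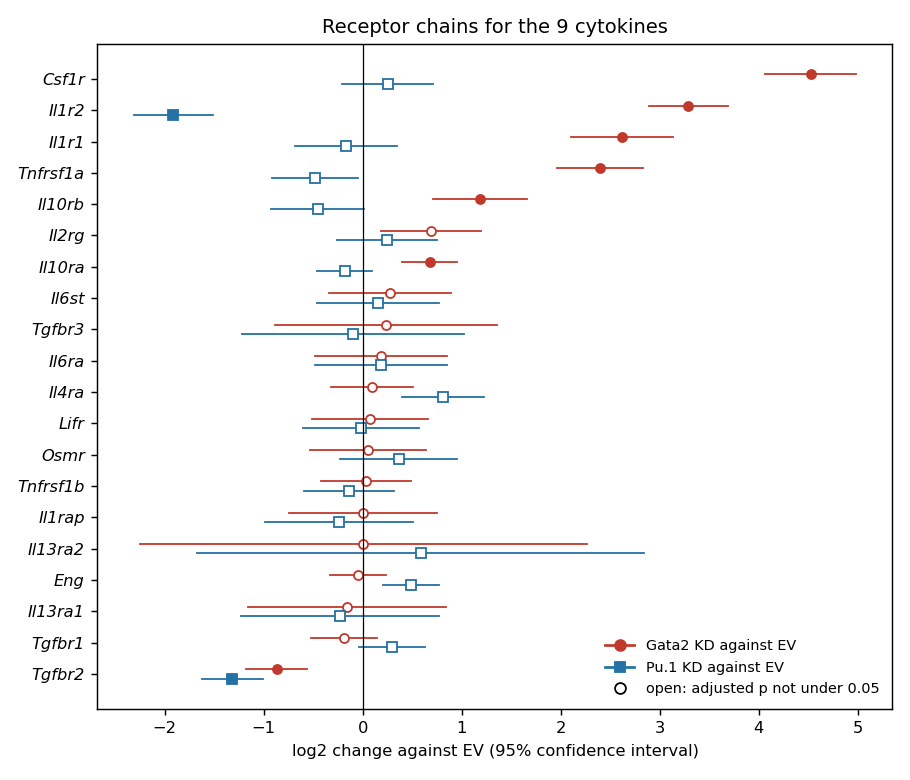
Change against EV on the log2 scale of 20 receptor chains of the cytokines (rows, ordered by the change in Gata2 KD), with 95% confidence intervals and filled symbols for adjusted p under 0.05. Csf1r, Il1r2, Il1r1, Tnfrsf1a, Il10rb and Il10ra are filled above 0 in Gata2 KD, and Il1r2 and Tgfbr2 below 0 in Pu.1 KD.

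Genes that process or block these cytokines were described next, of which 14 of 16 were tested. In Gata2 KD 5 rose and 1 fell (median change 0.52), and in Pu.1 KD 1 fell (median -0.03). Il1rn, the antagonist that competes with interleukin-1 beta, rose by 4.89 (SE 0.16, adjusted p = 3.49e-06), beside the 1.60 of Il1b. Gsdmd, which forms the pore that lets interleukin-1 beta out, rose by 1.89 and fell by 0.69 in Pu.1 KD (adjusted p = 0.0353). Thbs1, an activator of latent TGF-beta, rose by 3.08, and Furin, which cleaves the TGF-beta precursor, fell by 1.23. Casp1 and Pycard also rose, by 0.64 and 0.65.

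The 18 tested signal transducers had a median change of 0.11 in Gata2 KD and -0.11 in Pu.1 KD. Stat5a fell by 1.07 in Gata2 KD, and in Pu.1 KD, where 1 rose and 1 fell, Smad3 rose by 1.08 and Jak2 fell by 1.04. Of 18 genes known to respond to these cytokines, 5 rose in Gata2 KD (median 0.55), and 3 fell in Pu.1 KD (median -0.31). Tgfbi, a gene induced by TGF-beta, rose by 5.04, and the NF-kB inhibitor Nfkbia rose by 1.82. Chil3, induced by interleukin-4 in macrophages, rose by 3.51. Retnla and Arg1 of the same list were not called in Gata2 KD (changes 0.59 and -0.34). The signaling suppressor Socs1 fell by 0.85. In Pu.1 KD Bcl3, Icam1 and Chil3 fell by 1.31, 1.28 and 1.21.

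Of 30 other cytokine genes listed, 24 were tested. In Gata2 KD 3 rose (median change -0.07), Ltb together with Il16 (1.16) and Il18 (1.00), and none fell. In Pu.1 KD Flt3l, a progenitor growth factor, rose by 0.85 and Ltb and Il15 fell, Il15 by 1.05 (median of the list -0.04). Among 18 tested transcription factors of cytokine genes, 5 rose and 2 fell in Gata2 KD (median 0.08), and 4 fell in Pu.1 KD (median -0.23). Irf8, Maf and Relb rose by 4.38, 4.07 and 1.42, and besides Gata2 the related factor Gata1 fell by 1.08 in Gata2 KD. In Pu.1 KD Spi1 was followed by Fos, which fell by 1.55, and Runx1, which fell by 1.04.

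Markers of several blood cell types moved with the cytokines, and in these bulk samples fewer cells of a type and less RNA per cell cannot be told apart. Macrophage and monocyte markers were called higher in Gata2 KD for 7 of 11 genes and lower in Pu.1 KD for 3. Their summed level, the log2 of the summed scaled intensities, lay between 5.21 and 5.31 in EV, 7.74 and 8.06 in Gata2 KD and 4.11 and 4.14 in Pu.1 KD. The brightest probes weigh most in such a sum, and here that was Lyz2. Its mean level alone was 4.99 in EV, 7.70 in Gata2 KD and 3.62 in Pu.1 KD. In Pu.1 KD the median change of the 11 markers was -0.52, and not every marker fell, as the change of Csf1r was 0.25. Among these markers, Mrc1 was well above background on the 3 Gata2 KD arrays and on no other, and was at least 6.86-fold higher there than in EV. It entered the test only through those arrays, so its count among the 7 rests on the group in which it was high. All other tested macrophage and monocyte markers were above background on all 9 arrays. Neutrophil markers were called higher for 10 of 11 in Gata2 KD and lower for 8 in Pu.1 KD, with summed levels of 7.91 to 8.08 in EV, 10.13 to 10.38 in Gata2 KD and 6.72 to 6.96 in Pu.1 KD. Csf1, Il1b and Tnf were thus higher in the group in which these summed levels were higher, but in Pu.1 KD, where the summed levels were lower, Csf1 was higher than in EV.

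Mast cell and basophil markers were called lower in Gata2 KD for 7 of 11 genes and higher for 1, Kit. Their summed level lay between 6.99 and 7.19 in EV, 4.70 and 4.83 in Gata2 KD and 6.53 and 6.65 in Pu.1 KD, where 3 were called lower and 2 higher. Il6 and Il4 had the same order of group means as this summed level, in which the brightest probes weigh most. For Il4 the difference between Pu.1 KD and EV was not called (change -0.40, adjusted p = 0.361). Osm did not have this order, as the mean level of its brighter probe was 0.14 in EV and 0.26 in Pu.1 KD. Nor did every marker have it. Kit and the mast cell protease gene Cma1 were higher in Pu.1 KD than in EV, by 1.41 and 1.49 (adjusted p = 0.00332 and 0.0201). Hdc, Prss34 and Fcer1a were lower there, by 1.02, 0.81 and 0.70 (adjusted p = 0.00999, 0.0437 and 0.0329). In Gata2 KD Fcer1a fell by 2.96. Il1rl1, a receptor of mast cells and basophils, fell by 3.21 in Gata2 KD and had a change of 0.21 in Pu.1 KD (adjusted p = 0.735), and Cpa3, another mast cell protease gene, fell by 2.49 in Gata2 KD. Eosinophil markers were called higher for 2 of 6 in Gata2 KD and lower for 2 in Pu.1 KD, with summed levels of 1.62 to 2.15 in EV, 3.34 to 3.72 in Gata2 KD and 0.33 to 0.51 in Pu.1 KD. None of 6 tested T cell markers was called in either comparison with EV, and their summed level lay between 1.32 and 1.92 on all arrays. Of the other lists, B cell markers were called for none of 6 in Gata2 KD and 1 lower in Pu.1 KD, erythroid markers for 2 of 7 lower and then 2 higher, megakaryocyte markers for 2 of 7 higher and then 3 higher, and fibroblast and stroma markers for none of 7 in either. The part of these markers in the cytokine changes was not tested.

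Between genes over the 9 arrays, levels of Csf1 correlated with those of Il1b at r = 0.96 and with those of Il6 at r = -0.96, and Il6 and Il4 at r = 0.94. These values mostly restate the group differences, since the 9 points share 3 groups and 3 slides. By the same measure, the genes nearest to each called cytokine among 14464 named genes were Dtx4, Bcl6 and Tbkbp1 for Csf1 (r = 0.99 each), Lrg1, Fcnb and Hfe for Tnf (0.99 each), Fam43a, Tpcn1 and Lpar6 for Il1b (0.97 to 0.98), Clec10a, Fam3b and Mtmr10 for Il6 (0.99 to 1.00), Bcor, Acss2 and Clnk for Il4 (0.99 each) and Mta3, E2f5 and Abcb10 for Osm (0.95 to 0.98).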

How the data were processed

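Cy3-labeled RNA of the sorted cells was measured on single-color Agilent whole mouse genome arrays, 9 arrays on 3 slides with 1 array of each group per slide. The authors deposited the scanner intensities of Agilent Feature Extraction 10.1.1.1 (processed signal, background-subtracted within each array and not normalized between arrays) and a table of log2 values, whose scale was matched to the scanner values (r of 0.997 or more with that array's median spot signals in log2) and which served as an alternative. Groups and replicate numbers came from the sample titles.

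For levels, the array's 75th percentile over probes was subtracted from the log2 processed signal. Control spots were left out, outlier-flagged spots (47 to 96 per array) were missing, and spots of a probe were averaged. Probes were tested when well above background (at least 50% of their spots) on 3 or more of 9 arrays with 2 or more values in every group, which left 36585 of 41174. Probes were named by matching unversioned accessions to a RefSeq table (GRCm38.p6), which named 23374. The array design is annotated to another mouse build, so coordinates are given for the RefSeq promoter windows only. A gene with several probes was represented by the probe with the highest mean level. The fit was limma 3.58.1 in R 4.3.3 on all 9 arrays with the group as the only factor, two-sided, and counts of calls used the threshold of 0.05.

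The percentile was first taken over spots and then changed to probes after both counts had been seen, and both spot versions are given among the alternatives. The cytokines, gene lists and rules were chosen with earlier results of these data known, and the lists were written from general knowledge. Some list genes are not reported here. From each list the text names up to 3 called genes with the largest rise and fall in each comparison with EV. For the marker lists not all of them are named. Uncalled receptor chains, Il5, Il3, Csf2, Lta, Casp1, Pycard, Il10ra, Il10rb, Tnfrsf1a, Retnla and Arg1 were added after their values were seen. For each called cytokine it names the 3 genes, well above background on all arrays, whose levels correlated best with it. The labels describe triplicate samples without stating separate cultures, so the p-values measure the spread between these samples, which may be technical. Deviations of same-numbered arrays from their group means correlated between -0.55 and 0.65, so the numbers do not pair the arrays. The pair with the highest of these values also shared a slide. For arrays of the same slide the correlations lay between -0.04 and 0.72, and the slide was used as a block among the alternatives only. The number of arrays limits the precision.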

Additional observations from a re-analysis of the deposited data

How the results depend on the processing

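With the replicate block, in place of the fit without it, the number of cytokine genes called was 5 in Gata2 KD against EV, 0 in Pu.1 KD against EV and 4 in Gata2 KD against Pu.1 KD, where the reported counts were 6, 2 and 6. The Pu.1 KD count was also 0 when each array was scaled to its median and when only the groups compared entered the fit. At an unadjusted p under 0.05, limma gave 3, 2 and 3 genes in these 3 fits, and 4 as reported. Leaving out 1 array at a time gave counts of 5 in every fit in Gata2 KD against EV, from 0 to 2 in Pu.1 KD against EV and from 3 to 6 in Gata2 KD against Pu.1 KD. The lowest Pu.1 KD count came without Pu.1 KD replicate 1 (3 at an unadjusted p under 0.05), it was 1 without EV replicate 2 or 3, Gata2 KD replicate 2 or Pu.1 KD replicate 2 or 3, and the lowest count between the knockdowns came without Gata2 KD replicate 2 or Pu.1 KD replicate 3. With the slide as a block the counts were 5, 2 and 6 in the 3 comparisons. All other settings kept each count within 1.5 times of the reported one, and no called change of a cytokine reversed in any setting. The cause of the lost calls was not tested.

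Over all probes, 1902 were called in Gata2 KD against EV, 986 in Pu.1 KD against EV and 3524 in Gata2 KD against Pu.1 KD. These became 1172, 234 and 2368 with the replicate block, 2886, 1875 and 5168 with the slide as a block, 1203, 377 and 2259 with median scaling, 1165, 275 and 3537 with only the groups compared, 2406, 1575 and 4126 with the trend and robust settings of eBayes and 2620, 1785 and 4553 with the deposited log2 values. Leaving out an array gave 1070 to 1704, 278 to 825 and 2207 to 3945. Of the called probes, 1084 of 1902 were higher in Gata2 KD against EV, and 839 of 1203 with median scaling. The percentile over all spots gave 1890, 962 and 3517 calls and that over unflagged spots 1888, 962 and 3519, with no cytokine call changed. Both of these were added after seeing the data. Normexp with an offset of 50, which used the median spot signal, quantile normalization, the other filters on dim probes and keeping flagged spots moved no count of cytokine genes by more than 1. Of the genes in all lists, 66 were called in Gata2 KD and 40 in Pu.1 KD against EV. None changed sign with median scaling, quantile normalization, normexp or the deposited values, and 52 and 21 were still called with median scaling. The Il10 probe was among the dimmest of the cytokine probes. Over the 20 alternatives its changes against EV ran from -0.23 to 0.29 in Gata2 KD and from 0.14 to 0.62 in Pu.1 KD.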
